A study of Mus musculus with 18 samples.

Results

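Cytosolic and mitochondrial heat shock proteins, here the 10 genes Hspa1a, Hspa1b, Hsph1, Hspa8, Hsp90aa1, Hsp90ab1, Dnajb1, Hspb1, Hspd1 and Hspe1, were followed across a mouse liver RNA-seq series. They were taken by gene name from the deposited count table, and all 10 of the 10 names were found among its 35275 genes. The 18 libraries were of whole liver samples from mice of a mixed B6;129P2 background that were wild type (WT) or knockout (KO) for NRF2, the transcription factor encoded by Nfe2l2. All animals had received diethylnitrosamine (DEN), a chemical that causes liver cancer in rodents, and each genotype had 3 libraries at each of 3 times after it, which were day 2 (2D), week 4 (4W) and week 36 (36W). No group without DEN was analysed here, so every group shares that treatment. The labels call the 2D samples tumor and the others tissue, and the extraction text that all samples share speaks of tumors. Whether the 3 libraries of a group came from separate animals is not stated, so the p-values measure the spread between libraries, which may be technical. The sex of the animals and their age at treatment were not given, and the part of Nfe2l2 that the KO lacks was not stated.

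Heat shock proteins are molecular chaperones: they bind unfolded or partly folded proteins and keep them from clumping. HSP70 proteins (Hspa1a, Hspa1b and the constitutive Hspa8) bind and release clients in an ATP-driven cycle, in which HSP40 proteins such as Dnajb1 deliver the client and HSP110 proteins such as Hsph1 exchange the nucleotide. HSP90 proteins (Hsp90aa1 and Hsp90ab1) act later on kinases, steroid hormone receptors and other clients. The small heat shock protein Hspb1 holds unfolded proteins without ATP, and Hspd1 and Hspe1 form the chaperonin of the mitochondrial matrix, a barrel and its lid. Heat shock factor 1 (HSF1) switches on the inducible members after heat or other protein damage by binding arrays of the letters GAA and TTC, called heat shock elements, in their promoters.

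The promoter sequences are shown because these genes are known as targets of 1 factor, and because near-identical copies lie among them. A RefSeq promoter window of build GRCm38.p6 was found for 7 of the 10 genes (all but Hspa8, Hsp90aa1 and Hsp90ab1). The 250 bases before the start were searched on both strands for a pair of units, GAANNTTC or TTCNNGAA. A pair was present for 6 of the 7, Dnajb1 being the exception, and for 14.55% of 27025 genes. The stretches are written 5′ to 3′ on the strand of the gene, with the matching letters in capitals.
Hspa1b, chr17:34959324-34959353, minus strand: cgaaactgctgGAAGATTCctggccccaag
Hspa1a, chr17:34972242-34972271, minus strand: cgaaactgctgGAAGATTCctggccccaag
Hsph1, chr5:149636351-149636380, minus strand: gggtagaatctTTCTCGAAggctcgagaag
Hspb1, chr5:135887791-135887820, plus strand: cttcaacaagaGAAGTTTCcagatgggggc
Hspb1, chr5:135887811-135887840, plus strand: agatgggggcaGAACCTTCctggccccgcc
Hspd1, chr1:55088053-55088082, minus strand: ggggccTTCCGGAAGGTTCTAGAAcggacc
Hspe1, chr1:55088053-55088082, plus strand: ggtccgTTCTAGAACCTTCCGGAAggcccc
The Hspa1a and Hspa1b stretches are letter for letter the same, and in both genes the pair lay 104 to 97 bases before the start. The Hspd1 and Hspe1 stretches are 1 site read on both strands, an unbroken run of 18 bases that lies before the start of Hspe1 and before the downstream annotated start of Hspd1. That run holds the triple form, GAANNTTC continued by NNGAA, which was present in 0.466% of all 32851 windows. A match describes the letters only, and no binding was measured here. TGANNNNGC is a loose form of the core of the antioxidant response element that NRF2 binds, with any base in the fourth place. It was present in 35.2% of all windows and in 6 of the 10 windows of the 7 genes. Among these genes it was found for Hsph1, Dnajb1, Hspd1 and Hspe1. The fourth base was C in the Hsph1 and Dnajb1 matches and A or G in those of Hspd1 and Hspe1.

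The upstream sequence of Hspa1b is given whole, as the copy that took most of the reads of the pair. It covers chr17:34959239-34959488 on the minus strand, and the capitals mark the same pair of units.
Hspa1b promoter: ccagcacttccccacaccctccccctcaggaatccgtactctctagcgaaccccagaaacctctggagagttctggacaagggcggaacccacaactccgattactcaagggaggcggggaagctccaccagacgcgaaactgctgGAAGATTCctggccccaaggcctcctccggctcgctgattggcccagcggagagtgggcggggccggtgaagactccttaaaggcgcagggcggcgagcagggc
The same 250 bases of Hspa1a differed at 3 positions, an identity of 98.8%. The coding sequences were 99.4% identical, and the 3′ untranslated regions 48.3%. Of all 50-base windows of the transcript, 41.2% of those of Hspa1a and 37.7% of those of Hspa1b did not occur in the other copy. How reads that match both copies were counted is not given in the sources used here, so the split of the counts between Hspa1a and Hspa1b is uncertain. Hspd1 and Hspe1 overlap by 112 bases on opposite strands of chromosome 1, and whether the counting used strand is also not given, so reads from that stretch cannot be assigned to either gene. A longer overlap involves Hspa1a: 2225 of its 2967 bases lie opposite Gm20481, which had 0 counts over all libraries. How reads from that overlap were counted is not given, so the Hspa1a counts are uncertain for this reason too.

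The libraries held 15294175 to 24233456 counts, so that 3 counts, the floor used here for a gene not detected, corresponded to 0.124 to 0.196 CPM (counts scaled to a fixed library total) before TMM scaling. All gene levels are CPM after TMM scaling, which adjusts library totals for composition. Intervals and floors cover counting error only. Albumin, a hepatocyte marker, took 6.79% to 17.2% of the counts. Nfe2l2 was at 70.2 to 127 CPM in the WT and 37.7 to 67.8 CPM in the KO libraries, and the count over the whole gene does not check the label where the KO still makes part of the transcript. Nqo1, a textbook NRF2 target, was at 11.2 to 103 CPM in the WT and 0.752 to 6.40 CPM in the KO libraries, with no overlap. The third 2D WT library stood apart: its 5 collagen-producing cell markers summed to 5379 CPM against 788 to 1237 in the other 5 libraries of 2D, and its 5 bile duct markers to 443 against 97.8 to 129. Some results that rest on it are given with and without it, and the others with it only. All 2D sample names carry the letter B and all others the letter A, with no meaning stated, so whatever the letter marks cannot be told apart from 2D.

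The highest group mean was in the WT liver at 4W for 9 of the 10 genes, and Hspe1 had its highest at 2D in the WT. How many of all genes had their highest mean there was not counted. For Hspd1 the lead was within the spread (535 ± 43.4 CPM, SD, against 524 ± 33.1 in the KO at 2D). So it was against the WT at 36W for Hspa8 (1868 ± 151 and 1769 ± 420), Hspa1a (2.27 ± 0.448 and 1.94 ± 2.35) and Hspb1 (17.5 ± 10.6 and 15.4 ± 8.14). For 4 of the 10 genes, Hspa1b, Hsph1, Hsp90aa1 and Hsp90ab1, each of the 3 WT libraries of 4W lay above each of the other 15 libraries, which was true of 2.80% of the 14877 genes tested over all groups. In those 3 libraries the 10 genes together took 0.409% to 0.448% of all counts. They took 0.235% to 0.251% in the KO libraries of the same time, without overlap. At 2D the summed share was 0.236% to 0.283% in the WT and 0.271% to 0.322% in the KO, and at 36W it was 0.270% to 0.407% and 0.248% to 0.338%, so both of these times overlapped. In bulk RNA a lower level from fewer cells of a type and from less RNA per cell cannot be told apart.

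**Figure D1:**
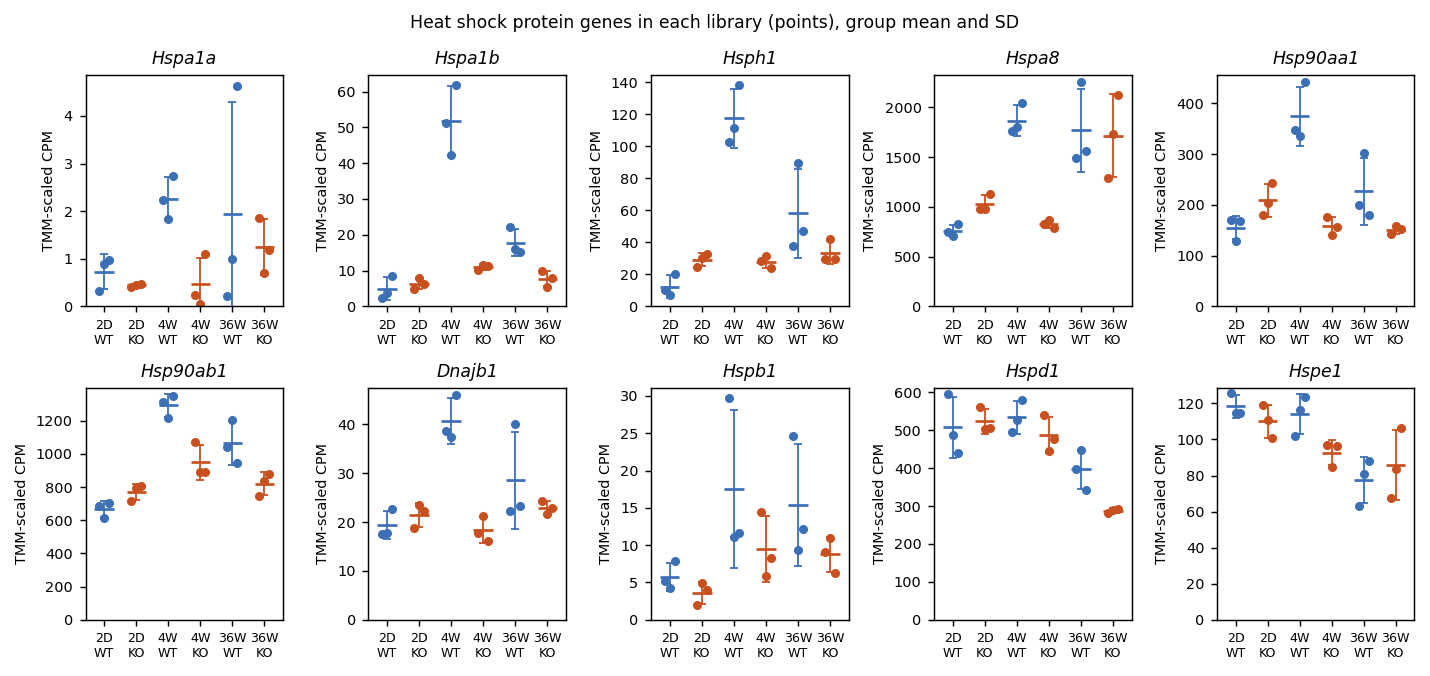
TMM-scaled CPM (y axis, linear, from 0) of each heat shock protein gene in the 3 libraries of each group (points), with the group mean and SD (bars). For Hspa1b, Hsph1, Hsp90aa1 and Hsp90ab1 the 3 WT libraries of 4W lie above the other 15 libraries. Hspa1a, Hsp90ab1, Hspb1, Hspd1 and Hspe1 were called between genotypes by edgeR at no time.

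The genes differed widely in abundance. On the scale of CPM per kilobase of gene length, which allows genes to be compared, the means in the WT at 4W were led by Hspa8 (592 ± 47.8, SD, n = 3) and Hsp90ab1 (513 ± 27.01), the constitutive members of their families. Their spreads did not overlap. Next came Hspd1 (221 ± 17.9), Hspe1 (118 ± 11.6) and Hsp90aa1 (114 ± 17.6), of which the last pair did not differ beyond their spread. Hsph1 (24.6 ± 3.89), Hspb1 (18.8 ± 11.4), Hspa1b (18.4 ± 3.49) and Dnajb1 (17.97 ± 2.06) followed, and neighbours among these 4 did not differ beyond their spread. Hspa1a was lowest at 0.764 ± 0.151. If reads that match both Hspa1 copies were left uncounted, the division by full gene length understates both copies. The places of Hspa1a and Hspa1b in this order are therefore uncertain. At 2D in the WT, Hspa1b was at 1.74 ± 1.14 and Hsph1 at 2.60 ± 1.45 CPM per kilobase, while Hspd1 was at 210 ± 33.2, close to its level at 4W.

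At 4W, 5 of the 10 genes were lower in the KO than in the WT liver and none was higher, in edgeR's quasi-likelihood test with Benjamini-Hochberg adjustment over 13394 genes. The 5 were Hspa1b, Hsph1, Hspa8, Hsp90aa1 and Dnajb1, which span the inducible HSP70, its nucleotide exchange factor, the constitutive HSP70, the inducible HSP90 and an HSP40. Of all genes tested, 6.08% were called, 4.13% as lower. All 10 estimates were below 0, with a median log2 fold change of -1.17 against 0.01 over all genes. In 8 of the 10 the 3 KO libraries lay below the 3 WT libraries, which was so for 14.7% of all genes tested. The mitochondrial chaperonin genes were not called.

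Hspa1b, the stress-inducible HSP70, was at 51.1, 42.2 and 61.7 CPM in the WT and at 10.03, 11.5 and 11.4 CPM in the KO libraries of 4W. The KO libraries were tightly grouped, far below the lowest WT library. The log2 fold change was -2.24 (SE 0.16, edgeR quasi-likelihood adjusted p = 0.000187). With the counts of Hspa1a and Hspa1b summed as 1 feature it was -2.24 (adjusted p = 0.000187 in the same edgeR test). Since Hspa1a held few of these counts, the sum could hardly differ from Hspa1b alone. The sum describes the pair and cannot show which copy the reads came from. Hspa1a itself was at 2.23, 1.84 and 2.73 CPM in the WT and 0.249, 0.0542 and 1.09 in the KO, the second of which, 1 count, was under the floor of its library. Its groups did not overlap either, but it was not called (-2.27, SE 0.73, edgeR adjusted p = 0.108). It was called with DESeq2 (adjusted p = 0.0251), in edgeR without a low-count filter (adjusted p = 0.0394) and in edgeR without the third KO library (-3.90, adjusted p = 0.0145).

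Hsph1, the HSP110 nucleotide exchange factor, was at 103, 111 and 138 CPM in the WT and 28.4, 31.3 and 23.8 CPM in the KO. It fell by 2.08 on the log2 scale (SE 0.15, edgeR adjusted p = 0.000187). Hspa8, the constitutive HSP70 that also uncoats clathrin vesicles, was the most abundant member per length in the WT at 4W. Its values were 1760, 1804 and 2041 CPM in the WT and 825, 866 and 785 in the KO, a log2 fold change of -1.19 (SE 0.11, edgeR adjusted p = 0.000835). Dnajb1, the HSP40 that delivers clients to HSP70, was at 38.7, 37.4 and 46.0 CPM against 17.7, 21.2 and 16.2 (-1.15, SE 0.14, edgeR adjusted p = 0.00254). In none of these 3 genes did the groups overlap.

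The HSP90 genes differed in the size of the change. Hsp90aa1, the inducible form, was at 347, 336 and 441 CPM in the WT and 176, 141 and 156 in the KO (-1.26, SE 0.14, edgeR adjusted p = 0.00169). Hsp90ab1, the constitutive form, was at 1312, 1217 and 1349 against 1073, 892 and 888 CPM. Its groups did not overlap, but its log2 fold change of -0.45 (SE 0.12) missed the threshold in edgeR (adjusted p = 0.0529). It passed with DESeq2 (adjusted p = 0.00235), without a low-count filter (0.0239), with scaling to library size alone (0.0103) and without the first KO library (-0.54, 0.0306), the last 3 being adjusted p-values in edgeR.

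The small heat shock protein and the chaperonin were not called. Hspb1 was at 29.7, 11.1 and 11.6 CPM in the WT and 14.4, 5.80 and 8.20 in the KO, so its groups overlapped and the first library of each group was the highest (-0.90, SE 0.43, edgeR adjusted p = 0.256; 0.0244 with the replicate number as a block). Hspd1, the barrel of the mitochondrial chaperonin, was at 496, 528 and 581 against 541, 445 and 478 CPM, with overlap (-0.14, SE 0.11, edgeR adjusted p = 0.507). Hspe1, its lid, was at 102, 117 and 124 against 97.2, 84.5 and 96.3 CPM (-0.31, SE 0.11, edgeR adjusted p = 0.138). Its groups did not overlap, with the KO lower.

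**Figure D2:**
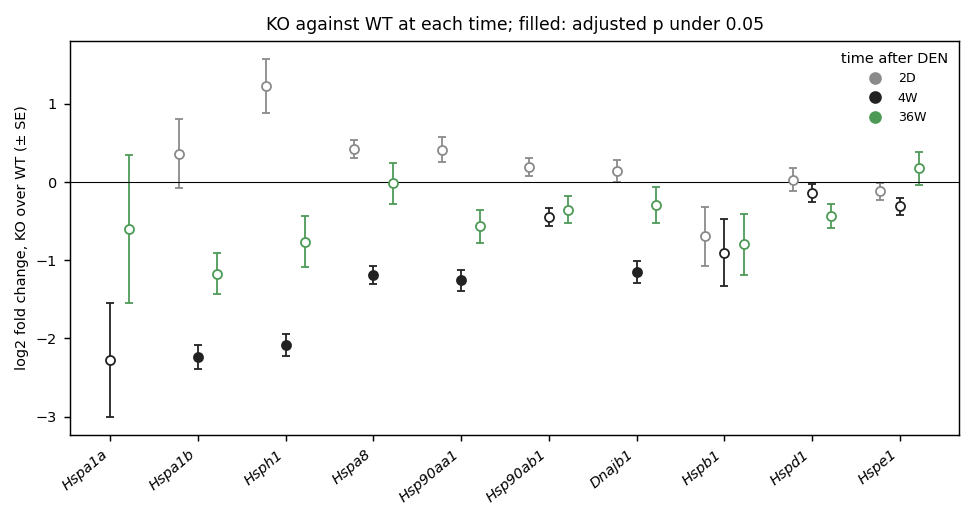
Log2 fold change of KO over WT (y axis, points, with SE as bars) for each heat shock protein gene at 2D (grey), 4W (black) and 36W (green), filled where the edgeR adjusted p was under 0.05. Only 4W points are filled, from -2.24 for Hspa1b to -1.15 for Dnajb1, and the 2D points of Hspa1b, Hsph1, Hspa8, Hsp90aa1, Hsp90ab1 and Dnajb1 lie above 0. Hspa1a was not tested at 2D.

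Other cells and RNA measures moved at 4W as well. The summed neutrophil markers were at 0.716 to 1.33 CPM in the WT and 3.24 to 8.78 in the KO libraries, and both of the 2 tested, S100a8 and S100a9, were called higher. Ly6g was at 0 in the 3 WT libraries. Of 6 markers each, 1 macrophage marker was lower, Clec4f (-0.71, edgeR adjusted p = 0.0138), 1 sinusoidal endothelial marker higher, Kdr (0.59, 0.0416), and 1 hepatocyte marker higher, Tat (0.79, 0.0353). The other macrophage markers were not called and lay above 0 (Marco 1.40, Adgre1 0.82, Cd5l 0.16, Cd68 0.11, Csf1r 0.04). Of the other endothelial markers, Stab2 (0.49), Pecam1 (0.31) and Clec4g (0.29) lay above 0, and Lyve1 (-0.16) and Stab1 (-0.05) below. Among the other hepatocyte markers only Cps1 (-0.09) lay below 0. The markers of a list thus did not all move with the called one. The second KO library had the highest macrophage marker sum (767 against 246 to 447 CPM) and the third the highest collagen-producing cell sum (1506 against 346 to 591 CPM). Mitochondrially encoded genes took 4.95% to 5.72% of the counts in the WT and 5.46% to 6.58% in the KO. Over 13 alternatives, which include leaving out each of these libraries in turn, the Hspa1b log2 fold change ran from -2.37 to -2.09 and stayed called. The other 4 called genes stayed called in all 12 of their alternatives.

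At 2D none of the 9 genes tested was called between genotypes by edgeR (background 0.165% of 13913 genes), and Hspa1a did not pass the count filter there. All 3 KO libraries lay above all 3 WT libraries for 4 genes, against 12.8% of all genes: Hsph1, Hspa8, Hsp90aa1 and Hsp90ab1. None lay lower in all 3. At an unadjusted p under 0.05 edgeR gave 3 of the 9, all higher, and 2236 of all genes. DESeq2 called 2 of the 9, when it called 5.02% of the genes to which it gave an adjusted p.

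Hsph1 was at 10.1, 6.90 and 20.2 CPM in the WT and 24.8, 30.04 and 32.6 CPM in the KO libraries of 2D. The third WT library, the one that stood apart, was the highest of its group, and still below the KO. The log2 fold change was 1.23 (SE 0.35, edgeR adjusted p = 0.167; 0.0141 with DESeq2), and without that library it was 1.76 (edgeR adjusted p = 0.00221). Hspa8 was at 751, 704 and 826 against 979, 981 and 1128 CPM (0.42, SE 0.12, edgeR adjusted p = 0.167; 0.0157 with DESeq2), and without that library the estimate was 0.48 (edgeR adjusted p = 0.0374). Leaving that library out raised the share of all genes called to 13.1%, so these 2 calls came with many others. Hspa1b was at 2.38, 3.80 and 8.48 CPM against 4.85, 7.94 and 6.15, with the same library highest of all 6 (0.36, SE 0.44, edgeR adjusted p = 0.715; 1.01 and 0.0552 without it).

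Also at 2D, Hsp90aa1 was at 171, 128 and 167 against 179.5, 204 and 243 CPM (0.41, SE 0.16, edgeR adjusted p = 0.261) and Hsp90ab1 at 689, 611 and 706 against 717, 794 and 805 CPM (0.19, SE 0.11, 0.43). Dnajb1 was at 17.6, 17.8 and 22.7 against 18.8, 23.5 and 22.2 CPM, with overlap. Hspb1 was at 5.16, 4.25 and 7.88 against 1.92, 4.89 and 3.97 CPM, and was the gene furthest below 0 (-0.69, SE 0.38, edgeR adjusted p = 0.411). Hspd1 was at 596, 487 and 439.8 against 562, 503 and 507 CPM and Hspe1 at 126, 115 and 114 against 119, 111 and 101 CPM, both with overlap. Hspa1a was at 0.314, 0.900 and 0.973 against 0.404, 0.444 and 0.473 CPM, all above the floor.

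At 36W none of the 10 genes was called by edgeR (background 0.0370% of 13516 genes). The estimate was below 0 for 9 genes, and for 4 of them, Hspa1b, Hsp90aa1, Hsp90ab1 and Hspd1, the 3 KO libraries lay below the 3 WT libraries, against 10.3% of all genes. At an unadjusted p under 0.05 edgeR gave 4 of the 10, all lower, and 1617 of all genes. DESeq2 called Hspa1b alone of the 10, and 1.93% of all genes to which it gave an adjusted p.

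Hspa1b was at 22.1, 16.0 and 15.1 CPM in the WT and 9.85, 5.50 and 7.94 in the KO at 36W (-1.17, SE 0.26, edgeR adjusted p = 0.228; 0.00725 with DESeq2). The groups stood apart, at levels well under those of the WT at 4W. Hsph1 was at 37.7, 89.7 and 46.8 against 29.3, 42.1 and 29.3 CPM, with overlap (-0.76, SE 0.33, edgeR adjusted p = 0.417). The second WT library held the highest 36W value of Hsph1, Hspa8, Hsp90aa1, Hsp90ab1, Dnajb1 and Hspd1. Hspa8 was at 1494, 2253 and 1562 CPM in the WT and 1295, 1730 and 2124 in the KO, which overlapped (-0.02, SE 0.26, edgeR adjusted p = 0.985). Dnajb1 was at 22.3, 40.01 and 23.3 against 24.2, 21.6 and 22.9 CPM, where only the second WT library stood above the others.

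Hsp90aa1 was at 199, 302 and 179 against 142, 157 and 152 CPM (-0.57, SE 0.21, edgeR adjusted p = 0.361), and Hsp90ab1 at 1043, 1205 and 947 against 747, 836 and 879.6 CPM (-0.35, SE 0.18, 0.465). The chaperonin genes were not called, and the Hspe1 estimate was smaller than its SE. Hspd1 was at 399, 448 and 343 CPM in the WT and 281, 291 and 292 in the KO, where the 3 KO libraries were nearly alike (-0.44, SE 0.15, edgeR adjusted p = 0.348). Hspe1 was at 63.2, 81.0 and 88.1 against 67.5, 83.6 and 106 CPM (0.17, SE 0.21, edgeR adjusted p = 0.744). Hspb1 was at 24.7, 9.38 and 12.1 against 9.02, 10.9 and 6.31 CPM, with the first WT library well above the rest. Hspa1a was at 0.219, 0.988 and 4.62 CPM in the WT and 1.86, 0.695 and 1.18 in the KO (-0.60, SE 0.95, edgeR adjusted p = 0.813), with the lowest and the highest value both in the WT. At this time the summed bile duct markers were at 102 to 556 CPM in the WT and 720 to 1171 in the KO, and their part in these values was not tested. The summed immediate early genes, which rise within minutes of tissue stress, were at 313 to 438 CPM in the WT and 559 to 659 in the KO, also without overlap, and at 135 to 168 against 164 to 240 CPM at 4W, with overlap. At 4W 1 of 9 was called, Nr4a1, which was higher (2.43, edgeR adjusted p = 0.0337), and at 36W edgeR called none of 10, with 4 at an unadjusted p under 0.05 and 2 called higher by DESeq2. Their part was not tested either.

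The difference between the genotypes was itself different at 2D and 4W. In a fit over all 18 libraries, the KO effect at 2D minus that at 4W was above 0 for all 10 genes, and 5 were called (background 1.34% of 14877 genes, 1.01% above 0). Hsph1 led with a difference of 3.31 on the log2 scale (SE 0.48, edgeR adjusted p = 0.00311). Hspa1b followed at 2.60 (SE 0.48, 0.0142), then Hsp90aa1 at 1.68 (SE 0.26, 0.00554) and Hspa8 at 1.62 (SE 0.26, 0.00554). Without the third 2D WT library these 4 were 3.88, 3.28, 1.76 and 1.70 and stayed called. Dnajb1 was called at 1.30 (SE 0.27, edgeR adjusted p = 0.0283), but not when 1 of 8 libraries was left out (2D WT replicates 1 and 2, 2D KO replicates 2 and 3, 4W WT replicates 2 and 3, 4W KO replicates 1 and 3; adjusted p = 0.0513 to 0.0846) or with library size alone (1.21, adjusted p = 0.0747). The 2 times share no library, and each also differs in the letter of its sample names.

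The KO effect at 36W minus that at 4W gave no call among the 10 genes (background 0.565%), in edgeR, where 5 of the 10 had an unadjusted p under 0.05 and 2379 of all genes did. Hspa8 came nearest, at 1.14 (SE 0.25, edgeR adjusted p = 0.0542), and was called with DESeq2 (0.000978), with library size alone (0.0475), with the replicate block (0.0471), without the second 36W WT library (0.0104) and without the first 36W KO library (0.0212). Leaving out the second 36W WT library also gave calls for Hsph1 (1.75, edgeR adjusted p = 0.0435), Hsp90aa1 (0.92, 0.0438) and Dnajb1 (1.15, 0.0121), 4 calls in all against none with it. The share of all genes called without that library is not given here, so these calls may have come with many others. The differences of Hspa1b (1.04, SE 0.47, edgeR adjusted p = 0.295) and Hsph1 with all libraries (1.29, SE 0.47, 0.19) missed the threshold.

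The KO effect at 36W minus that at 2D was called for Hsph1 (-2.02, SE 0.48, edgeR adjusted p = 0.0331) and Hsp90aa1 (-1.02, SE 0.26, 0.048), against 3.04% of all genes, 2.43% below 0. Both calls were fragile. That of Hsph1 ended without any 1 of 6 libraries (2D WT replicates 1 and 2, 2D KO replicates 1 to 3 and 36W KO replicate 3; -2.13 to -1.74, adjusted p = 0.0528 to 0.0897 in edgeR). That of Hsp90aa1 ended without any 1 of 10 of the 12 libraries (all but the third WT library of 2D and that of 36W; -1.12 to -0.76, adjusted p = 0.0515 to 0.125 in edgeR). Without the third 2D WT library both held and Hspa1b was called too (-2.22, edgeR adjusted p = 0.00676).

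Within the WT, 7 genes were lower at 2D than at 4W (Hspa1b, Hsph1, Hspa8, Hsp90aa1, Hsp90ab1, Dnajb1 and Hspb1), where 37.7% of all genes were called, 19.1% as lower. With so many genes differing between these times, the sizes say more than the count. Hspa1b was lower by a log2 fold change of -3.40 (SE 0.36, edgeR adjusted p = 5.2e-06) and Hsph1 by -3.24 (SE 0.36, 7.79e-06). Over their alternatives, which include leaving out each library, Hspa1b ran from -4.05 to -3.06 and Hsph1 from -3.77 to -2.93. Both stayed called. Hspa8 was lower by -1.30, Hsp90aa1 by -1.27, Dnajb1 by -1.07 and Hsp90ab1 by -0.95. The Hspb1 call (-1.60, edgeR adjusted p = 0.0148) was lost without the first 4W library (-0.98, 0.117) or the second 2D library (-1.43, 0.0558). Hspd1 and Hspe1 were not called, with group means of 508 and 535 CPM for Hspd1 at 2D and 4W and of 118 and 114 CPM for Hspe1.

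In the KO, 1 of the 10 genes was called between 2D and 4W, where 24.2% of all genes were, and the count was 3 with library size alone and 4 with only the compared groups in the fit. The gene called was Hspb1 (-1.40, SE 0.49, edgeR adjusted p = 0.047), and leaving out any 1 of 5 libraries (the 3 of 2D and the first and the third of 4W) ended the call (-1.65 to -0.96, adjusted p = 0.0553 to 0.229). For the 5 genes that were called in both the WT step and the genotype comparison of 4W, the KO means at 2D and 4W were 6.31 ± 1.55 and 10.98 ± 0.824 CPM for Hspa1b, 29.2 ± 3.99 and 27.8 ± 3.80 for Hsph1, 1029 ± 85.6 and 825 ± 40.3 for Hspa8 and 21.5 ± 2.46 and 18.4 ± 2.60 for Dnajb1. For Hsp90aa1 they were 209 CPM (range of the 3 libraries 179.5 to 243) and 158 CPM (141 to 176). The KO libraries of the times did not overlap for Hspa1b, which was lower at 2D (-0.80, SE 0.34, edgeR adjusted p = 0.102), nor for Hspa8 and Hsp90aa1, which were higher there (0.32 and 0.41, adjusted p = 0.217 and 0.126 in edgeR). Those of Hsph1 and Dnajb1 overlapped. Of all 10 genes, 3 were lower and 3 higher at 2D without overlap. The share of all genes without overlap between these times is not given here, so this may be common. The WT means of Hsph1 were 12.4 ± 6.93 and 117 ± 18.5 CPM.

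From 4W to 36W, 5 genes were lower in the WT (9.13% of all genes were called lower): Hspa1b (-1.54, SE 0.33, edgeR adjusted p = 0.00358), Hsph1 (-1.01, 0.0383), Hsp90aa1 (-0.72, 0.0112), Hspe1 (-0.56, 0.016) and Hspd1 (-0.43, 0.0313). Hspa1b alone of these kept its call under all of its 13 alternatives. With only the WT libraries of these 2 times in the fit, Hspa1b was the 1 gene called. Leaving out 1 library moved the count from 5 to 4 (4W replicate 1), 2 (4W replicate 2, 36W replicate 1 or 36W replicate 3), 1 (4W replicate 3) or 6 (36W replicate 2). In the KO, Hspa8 rose from 825 ± 40.3 to 1716 ± 415 CPM (1.06, SE 0.18, edgeR adjusted p = 0.000423) and Hspd1 fell from 488 ± 48.4 to 288 ± 5.91 CPM (-0.76, SE 0.13, 0.000549), 2 of 10 where 29.8% of all genes were called. Both calls held in all 12 alternatives. In the WT the difference of Hspa8 between 4W and 36W was not called.

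From 2D to 36W, 7 genes were higher in the WT and 2, Hspd1 and Hspe1, were lower, against 37.8% of all genes called, 20.7% as higher and 17.1% as lower. Hspa1b (1.86), Hsph1 (2.23), Hspa8 (1.22) and Hspe1 (-0.61) held in all of their alternatives. Leaving out 1 library changed the 9 calls to 6 (2D replicate 1), 5 (2D replicate 2), 7 (36W replicate 1 or 2) or 8 (36W replicate 3), and 2D replicate 3 left 9. In the KO, Hspa8 was higher (0.74, edgeR adjusted p = 0.00498) and Hspd1 lower (-0.86, 0.000165) at 36W than at 2D, against 33.7% of all genes called, and Hspa1b and Hsph1 were not called. Scaling to library size alone moved the median log2 fold change of all genes to -0.40 for 2D to 36W in the WT, and 5 of the 9 WT calls remained under it.

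**Figure D3:**
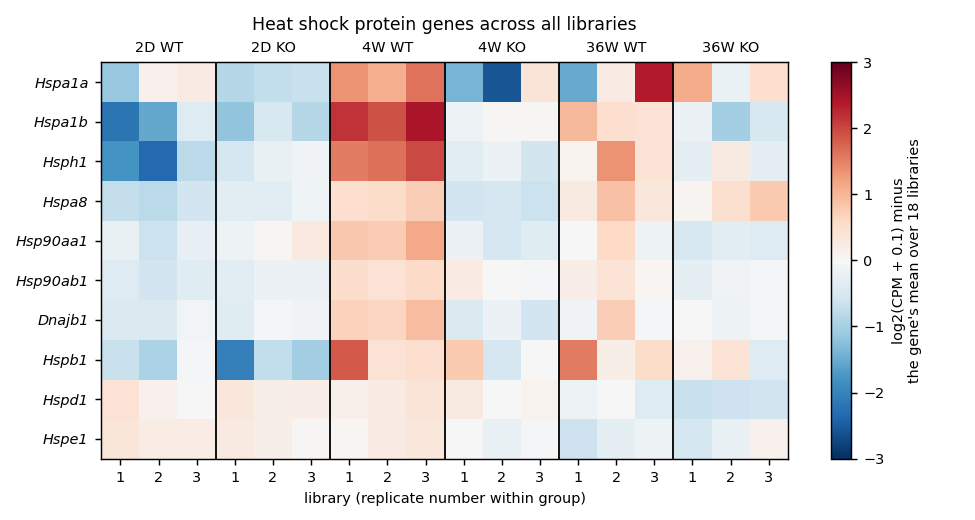
Log2 of CPM plus 0.1 for each heat shock protein gene (rows) in each library (columns, by group and replicate), minus the mean of the gene over the 18 libraries (colour). The 3 WT libraries of 4W are red for Hspa1b and Hsph1, the first and second WT libraries of 2D are the bluest for these genes, and Hspd1 and Hspe1 are pale except for the lower 36W libraries.

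The genes fell into sets of like profile, described by the root mean square difference of their centred log2 CPM over the 18 libraries, where 0 is an identical profile. Hsp90aa1 and Dnajb1 differed by 0.24, Hspd1 and Hspe1 by 0.27, and Hsp90aa1 and Hsp90ab1 by 0.31. Hspa1b was nearest to Hsph1 (0.59), as both swung further than the others. The paralogs Hspa1a and Hspa1b differed by 1.24, with Hspa1a at 1 to 73 counts a library. Over the 11544 genes with a mean log2 CPM of at least 1, the nearest profiles to Hspa8 were those of Trib1, Dnajb11, Uso1, Sec23b and Trabd (0.22 to 0.24), and to Hspd1 those of Dld, Zadh2, Uqcrc2, Immt and Pitrm1 (0.11 to 0.13). The nearest to Hsph1 were Foxa1, Ero1lb, Irgm1, Bag3 and Rtp4 (0.57 to 0.63).

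The split between the near-identical Hspa1 copies varied. Hspa1a took 4.18%, 4.18% and 4.24% of their joint counts in the 3 WT libraries of 4W, each with an exact binomial interval at the 95% level whose bounds ran from 2.94% to 5.74% over the 3. In the third WT library of 36W it took 23.4% (73 of 312 counts, interval 18.8% to 28.5%), while in the first it took 0.984% (5 of 508, interval 0.320% to 2.28%). These intervals do not overlap, so libraries of 1 group differed beyond counting error. In the KO at 4W the share was 2.42%, 0.469% and 8.72%, and at 2D it ran from 5.30% to 19.1% over the 6 libraries.

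The partners of these chaperones were then counted at 4W, by lists that were drawn up with earlier results of these data known. Of the HSP70 and HSP90 co-chaperones, 7 of 16 tested were lower and none higher, where 4.13% of all genes were lower, with a median log2 fold change of -0.54 against 0.01 over all genes. The 3 with the smallest p-values were Fkbp5 (86.3 ± 11.1 CPM in the WT, 27.1 ± 1.94 in the KO; -1.68, edgeR adjusted p = 0.000187), an HSP90-bound immunophilin, Chordc1 (61.1 ± 4.72 and 27.3 ± 2.79 CPM; -1.17, 0.00127), an HSP90 co-chaperone, and Fkbp4 (223 ± 16.1 and 126 ± 6.45 CPM; -0.83, 0.00254), a further immunophilin. Of the HSP40 co-chaperones 3 of 8 were lower, Dnaja1 most (305 ± 26.0 and 139 ± 8.51 CPM; -1.14, edgeR adjusted p = 0.000808), then Dnajb4 (-0.62, 0.0166) and Dnajb2 (-0.45, 0.0261), with a list median of -0.19. Among the HSP70 and HSP110 relatives 1 of 5 was lower, Hspa4l (-0.53, edgeR adjusted p = 0.026), and 1 of 3 small heat shock proteins, Hspb8 (-0.70, 0.0493), while the medians of these lists were -0.06 and 0.10.

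Other folding systems were not called in this direction or reached further. None of the 4 heat shock factor genes and regulators was called by edgeR at 4W: Hsf1 was at 16.1 ± 1.45 CPM in the WT and 15.4 ± 2.48 in the KO (-0.08, edgeR adjusted p = 0.806), and Hsf2 came nearest (0.40, 0.0953). At an unadjusted p under 0.05 edgeR gave 1 of these 4 and 2966 of all 13394 genes, and DESeq2 called none of the 4. Among 13 mitochondrial folding and protease genes none was lower and 1 was higher, Grpel2, a nucleotide exchange factor of mitochondrial HSP70 (37.1 ± 9.76 and 69.0 ± 16.6 CPM; 0.88, edgeR adjusted p = 0.0472). None of the 8 subunit genes of TRiC, the cytosolic chaperonin, was called, with Cct3 nearest (-0.52, edgeR adjusted p = 0.0519), 3 at an unadjusted p under 0.05 and 2 called lower by DESeq2. The endoplasmic reticulum chaperones, which answer to the unfolded protein response, were lower for 9 of 13, with a median of -0.95. Hspa5, the HSP70 of that compartment, went from 1599.7 ± 394 to 486 ± 40.5 CPM (-1.73, edgeR adjusted p = 0.00127). At 2D and at 36W edgeR called no gene of any of these 8 lists between genotypes. At an unadjusted p under 0.05 it gave 16 of 71 at 2D and 4 of 70 at 36W, and DESeq2 called 6, all higher, and 0. Over all genes edgeR gave 2236 of 13913 at 2D and 1617 of 13516 at 36W at that unadjusted p.

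**Figure D4:**
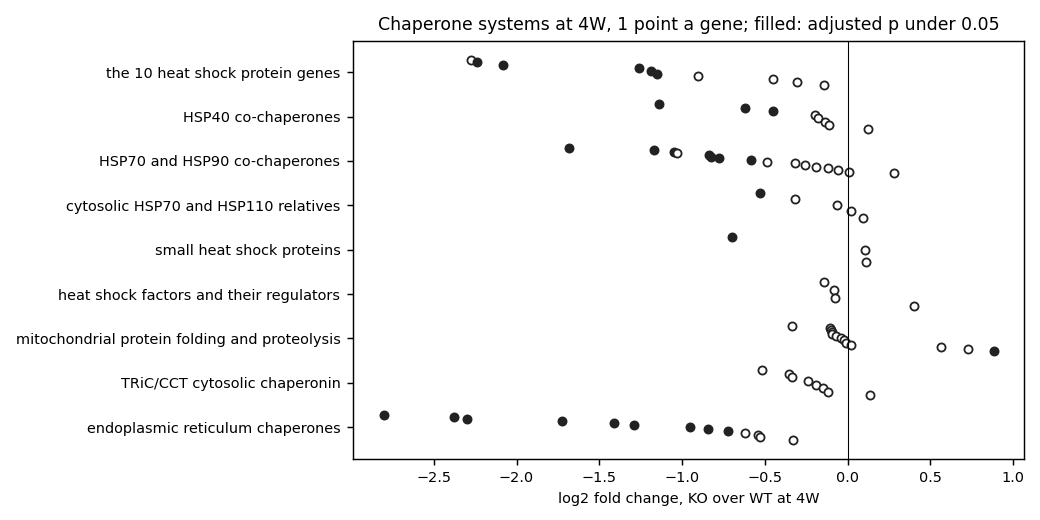
Log2 fold change of KO over WT at 4W (x axis) for each tested gene (points) of the heat shock protein genes and of 8 other chaperone lists (rows), filled where the edgeR adjusted p was under 0.05. Filled points to the left number 5 of 10 heat shock protein genes, 7 of 16 HSP70 and HSP90 co-chaperones and 9 of 13 endoplasmic reticulum chaperones, while the mitochondrial list has 1 filled point, to the right.

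For the co-chaperones too, the KO effect differed between 2D and 4W. In the fit over all libraries 5 of the 16 HSP70 and HSP90 co-chaperones had a called difference above 0 (Stip1 1.32, Chordc1 1.67, Ppid 1.02, Ahsa1 0.75 and Bag3 1.11), and so did Dnaja1 of the HSP40 list (1.33, edgeR adjusted p = 0.00311). Of all 14877 genes, 1.34% had a called difference, 1.01% above 0. Stip1, which links HSP70 to HSP90, was at 71.7 ± 11.1 CPM in the WT and 101 ± 4.06 in the KO at 2D, and at 133 ± 13.4 and 74.7 ± 7.65 CPM at 4W. Bag3, a co-chaperone of HSP70 in selective autophagy, was at 20.3 ± 2.49 and 21.3 ± 2.40 CPM at 2D and at 59.8 ± 8.32 and 29.02 ± 4.05 at 4W. The WT means of both genes were higher at 4W than at 2D, while the KO mean was lower at 4W for Stip1 and higher for Bag3. Of the endoplasmic reticulum chaperones 8 of 13 had a called difference, all above 0, led by smallest p by Hyou1 (2.77, edgeR adjusted p = 0.000574), Manf (2.66, 0.00238) and Creld2 (3.35, 0.00311). None of the 13 mitochondrial, 8 TRiC and 4 heat shock factor genes had a called difference in edgeR, with 2, 2 and 0 at an unadjusted p under 0.05, and DESeq2 called 1 TRiC gene. Nor did edgeR call any of 5 HSP70 and HSP110 relatives or 4 small heat shock proteins, with 2 and 0 at an unadjusted p under 0.05 and 1 and 0 called by DESeq2. Of all 14877 genes, 2434 had an unadjusted p under 0.05 in edgeR.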

How the data were processed

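The authors deposited 1 table of whole-number counts per gene for all 18 libraries. Per the labels' protocols, libraries were made from total RNA with an Illumina TruSeq RNA kit. The submitters' processing notes name STAR 2.5, HTSeq, DESeq2 and the genome build mm10. Counting options are not given in the sources used here. The deposited counts were scaled by TMM to CPM and tested in R 4.3.3 with edgeR 4.0.16 (filterByExpr, glmQLFit, glmQLFTest), Benjamini-Hochberg adjusted over all genes tested, with a call at an adjusted p under 0.05. Genotypes were compared within each time on its 6 libraries. Times, and differences of KO effects, were compared in 1 fit of 6 group means over all 18. Log2 fold changes are edgeR's with a prior count, so their linear size can differ from ratios of means. An exact permutation test of 3 against 3 libraries cannot go below p = 0.1 and was not used. Alternatives were DESeq2 1.42.0, other scalings, no filter, a replicate block, another set of libraries in the fit and leaving out each library. The statistics were tested on simulated data. All 10 members were to be named. From other lists, at most 3 called genes with the smallest p-values were named, or the nearest to a call; Hspa5, Hsf1, Stip1, Ppid, Ahsa1 and Bag3 were named after their values were seen. Members and lists were chosen with earlier results of these data known. No 2 libraries of a group agreed within sampling noise.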

Additional observations from a re-analysis of the deposited data

Results flagged for a closer look

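The KO effect differed between times for 7 values in a test of the difference itself (edgeR's quasi-likelihood test over all 18 libraries). For the KO effect at 2D minus that at 4W these were Hspa1b (2.60, SE 0.48, adjusted p = 0.0142), Hsph1 (3.31, SE 0.48, 0.00311), Hspa8 (1.62, SE 0.26, 0.00554), Hsp90aa1 (1.68, SE 0.26, 0.00554) and Dnajb1 (1.30, SE 0.27, 0.0283) on the log2 scale. All 3 KO libraries were below all 3 WT libraries at 4W for each of the 5 genes, and at 2D all 3 were above for Hsph1, Hspa8 and Hsp90aa1. Over all genes tested this was so for 14.7% (lower at 4W) and 12.8% (higher at 2D). EdgeR did not call Hsph1, Hspa8 or Hsp90aa1 between genotypes at 2D (adjusted p = 0.167, 0.167 and 0.261). The same libraries gave the called differences, so their order is no separate support. For the KO effect at 36W minus that at 2D they were Hsph1 (-2.02, SE 0.48, edgeR adjusted p = 0.0331) and Hsp90aa1 (-1.02, SE 0.26, 0.048). The letter in the sample names also differs between 2D and the other times, and its part in these values was not tested.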

How the results depend on the processing

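Of 1054 alternative estimates of 79 log2 fold changes, 926 kept their direction and their side of the threshold, 82 lost a call, 37 gained one and 9 changed sign. The changes of sign were all in KO against WT and none was called: at 2D Hspd1 with library size alone (-0.0645), without WT replicate 3 (-0.0672) and without KO replicate 1 (-0.0279), and at 36W Hspa1a without WT replicate 3 (1.07), Hspa8 with library size alone (0.0406), without WT replicate 2 (0.187) and without KO replicate 1 (0.13), Dnajb1 without WT replicate 2 (0.0247) and Hspe1 without KO replicate 3 (-0.0173). Leaving out 1 library gave up to 0.167 for Hspd1 at 2D, and at 36W down to -1.14 for Hspa1a, -0.208 for Hspa8 and -0.443 for Dnajb1, and up to 0.306 for Hspe1. DESeq2 called 7 members at 4W and 6 for the KO effect at 2D minus 4W. Relative to their size, other counts moved more, with DESeq2 to 2 at 2D, 1 at 36W, 1 for the KO effect at 36W minus 4W, 4 for 36W minus 2D and 4 for 36W against 2D in the KO. With library size alone it was 1 for 36W minus 4W, 0 for 36W minus 2D, 5 for 36W against 2D in the WT, 3 for 2D against 4W in the KO and 4 for 36W against 2D in the KO. With DESeq2 size factors it was 1 for 36W minus 2D and 0 for 2D against 4W in the KO. With only the groups compared in the fit it was 0 for 36W minus 2D, 1 for 36W against 4W and 5 for 36W against 2D in the WT, and 4 for 2D against 4W and 5 for 36W against 2D in the KO. The cause was not tested, and fewer libraries in a fit leave fewer degrees of freedom. Leaving out 1 library gave 0 to 2 calls at 2D, 5 to 6 at 4W and 0 at 36W for KO against WT. For the differences it gave 4 to 5 (2D minus 4W), 0 to 4 (36W minus 4W) and 0 to 3 (36W minus 2D). In the WT it gave 6 to 7 (2D against 4W), 1 to 6 (36W against 4W) and 5 to 9 (36W against 2D), and in the KO 0 to 1, 2 to 2 and 2 to 3. For most of these alternatives the share of all genes called is not given here. Changed counts of members may thus have come with many other genes.

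The replicate numbers of the names were not taken to pair the libraries, since nothing says what they mark. The deviations of same-numbered WT and KO libraries correlated at 0.08, -0.02 and 0.23 at 2D, 0.09, 0.04 and 0.03 at 4W, and 0.15, -0.07 and 0.05 at 36W. Between times they ran from -0.138 to 0.179, apart from 0.246, 0.105 and 0.410 for 2D WT with 4W KO. With the block 5 members were called for 2D minus 4W, the number also called without it. With the replicate block the number of members called was 1 for the KO effect at 36W minus 4W, 1 for 36W minus 2D and 0 for 2D against 4W in the KO.

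With 15294175 to 24233456 counts, depth limits Hspa1a, at 1 to 73 counts a library, far more than any other member.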
